A study of Rattus norvegicus with 24 samples.

Results

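The 3 genes ENSRNOG00000012274, ENSRNOG00000013971 and ENSRNOG00000017969 were followed by line, brain region and library in rats bred for opposite responses to novelty. They were chosen by their level and by their line differences in these same libraries: well expressed IDs, with group means of 39.8 to 184.7 CPM (read counts scaled to a common library total), that differed by a small amount between the lines in the same direction in both regions. They are 3 of the 32662 Ensembl gene IDs in each deposited table, and all 3 passed the filter on low counts in every comparison. The tables pair no ID with a gene symbol, and the rat gene table used here (assembly GRCr8) matched 0 of the IDs, so no function, position or sequence is given for any gene.

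The study sequenced poly-A RNA of brain tissue from 60-day-old rats in 24 libraries. The groups were High Responder amygdala, Low Responder amygdala, High Responder dorsal raphe and Low Responder dorsal raphe, with 6 libraries in each. The labels name no treatment and give neither sex nor dissection, nor whether the libraries of a group or the equal numbers in the 2 regions came from separate or shared rats. The spread behind each p-value is therefore that of libraries, and part of it may be technical.

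High-responder rats move more in a new environment than low-responder rats, and the lines are used as models of temperament and of the response to stress. The amygdala is a forebrain structure that assigns emotional value to events. The dorsal raphe is a midbrain nucleus from which serotonin neurons project to the forebrain, the amygdala included. Each line was bred for 1 phenotype, so a difference between the lines can belong to the behaviour or to any other way in which the lines diverged. In bulk tissue, fewer cells that express a gene and less RNA of it per cell cannot be told apart. The labelled regions could not be checked against marker genes, because no ID had a symbol.

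Library totals ranged from 9232983 to 20194601 counts, and each of the 3 genes had between 407 and 3858 counts in a library. CPM values were scaled with TMM factors over all 24 libraries. All 12 low-responder libraries carried lower running library numbers than all 12 high-responder libraries, so line and the order of library numbers cannot be told apart. Within each group the running numbers broke, and libraries before the first break are called earlier and those after it later. In high-responder dorsal raphe the numbers broke again before the last library. Earlier and later hold within a line only, since later low-responder numbers lie below earlier high-responder ones. The line is described without a test, since the line differences chose the genes, and the region and the library numbers are tested.

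In high-responder rats ENSRNOG00000012274 was lower and ENSRNOG00000013971 and ENSRNOG00000017969 were higher than in low-responder rats, in both regions. The sizes were modest, between 1.11-fold and 1.57-fold for the pair of genes that were higher. The lines overlapped in the amygdala for all 3 genes. In the dorsal raphe they did not overlap for ENSRNOG00000012274 and ENSRNOG00000013971.

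**Figure D1:**
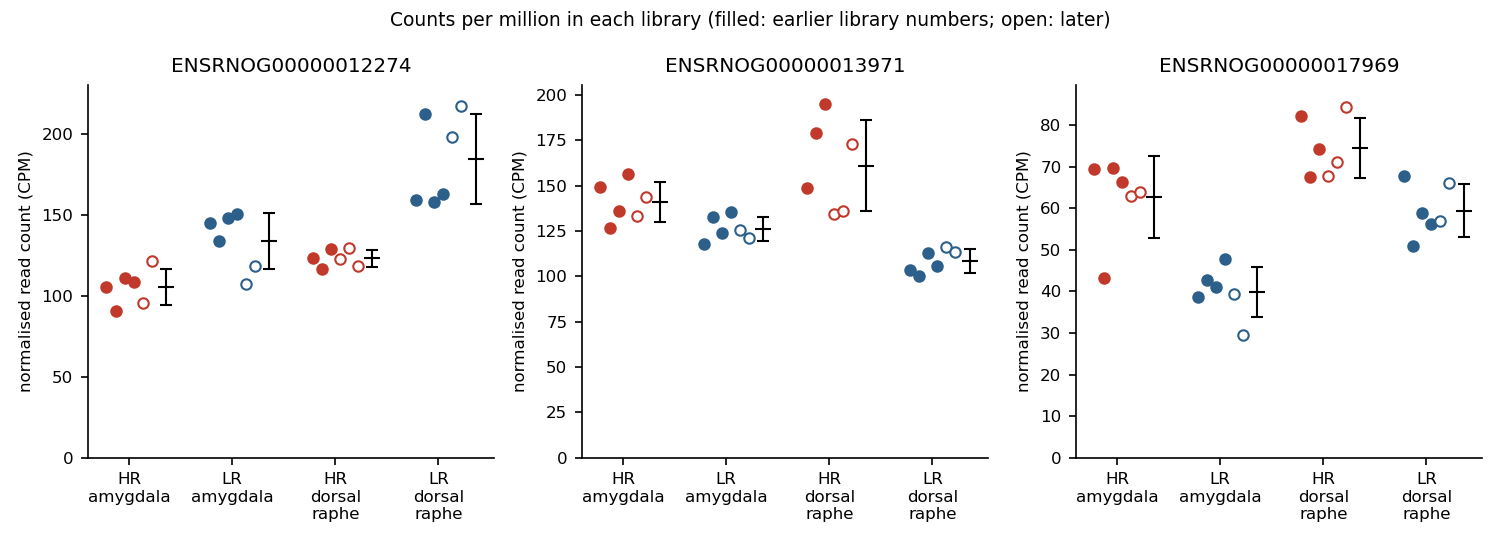
Normalised read count (CPM) of each gene in each of the 24 libraries, in 4 groups of 6: high-responder (HR, red) and low-responder (LR, blue) libraries of amygdala and of dorsal raphe. Filled points have earlier and open points later library numbers, and the bars beside them show mean and SD. In the dorsal raphe the 6 HR libraries of ENSRNOG00000012274 lie at or below 129.6 CPM and the 6 LR libraries at or above 157.8 CPM.

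ENSRNOG00000012274 in the amygdala stood at 105.6, 90.6, 110.8, 108.5, 95.8 and 121.6 CPM in high-responder libraries 1 to 6. In low-responder amygdala libraries 1 to 6 it stood at 144.7, 134.0, 147.8, 150.6, 107.1 and 118.7 CPM. Low-responder libraries 5 and 6 lay inside the high-responder range, and the other 4 lay above it. High-responder amygdala averaged 105.5 ± 11.1 CPM and low-responder amygdala 133.8 ± 17.5 CPM (SD, n = 6 per group), with a log2 difference of -0.35 (SE 0.09).

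In the dorsal raphe the same gene stood at 123.2, 116.8, 129.0, 123.0, 129.6 and 118.3 CPM in high-responder libraries 1 to 6. In low-responder dorsal raphe libraries 1 to 6 it stood at 159.5, 212.4, 157.8, 162.8, 197.9 and 217.5 CPM. Every low-responder library was above every high-responder library here. The low-responder libraries fell into a lower set (libraries 1, 3 and 4) and a higher set (libraries 2, 5 and 6), while the high-responder libraries lay close together. High-responder dorsal raphe averaged 123.3 ± 5.27 CPM and low-responder dorsal raphe 184.7 ± 27.8 CPM (SD, n = 6 per group), with a log2 difference of -0.59 (SE 0.09).

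ENSRNOG00000013971 in the amygdala stood at 149.0, 126.5, 135.8, 156.3, 133.3 and 143.5 CPM in high-responder libraries 1 to 6. In low-responder amygdala libraries 1 to 6 it stood at 117.8, 132.4, 124.1, 135.5, 125.3 and 121.1 CPM. The ranges overlapped: 4 high-responder libraries lay above all low-responder ones, while libraries 2 and 5 lay among them. The lowest of those 4, library 3 (135.8 CPM, exact Poisson 95% interval 129.4 to 142.4), was within counting error of low-responder library 4 (135.5 CPM, 129.3 to 141.9). High-responder amygdala averaged 140.7 ± 11.0 CPM and low-responder amygdala 126.0 ± 6.73 CPM (SD, n = 6 per group), with a log2 difference of 0.16 (SE 0.06), the smallest of the 6 line differences described here.

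In the dorsal raphe ENSRNOG00000013971 stood at 148.8, 178.9, 195.0, 134.1, 136.1 and 173.0 CPM in high-responder libraries 1 to 6. In low-responder dorsal raphe libraries 1 to 6 it stood at 103.2, 99.97, 113.1, 105.6, 116.1 and 113.6 CPM. The lines did not overlap, and the high-responder libraries fell into a lower set (libraries 1, 4 and 5) and a higher set (libraries 2, 3 and 6). High-responder dorsal raphe averaged 161.0 ± 25.0 CPM and low-responder dorsal raphe 108.6 ± 6.53 CPM (SD, n = 6 per group), with a log2 difference of 0.56 (SE 0.09).

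ENSRNOG00000017969 in the amygdala stood at 69.6, 43.3, 69.8, 66.3, 63.0 and 63.9 CPM in high-responder libraries 1 to 6. In low-responder amygdala libraries 1 to 6 it stood at 38.8, 42.6, 41.1, 47.7, 39.3 and 29.6 CPM. A single high-responder library, number 2, lay inside the low-responder range, and the other 5 lay above all low-responder libraries. High-responder amygdala averaged 62.6 ± 9.86 CPM and low-responder amygdala 39.8 ± 5.97 CPM (SD, n = 6 per group), with a log2 difference of 0.65 (SE 0.12). Without high-responder library 2 the high-responder mean was 66.5 ± 3.14 CPM (SD, n = 5), the lines did not overlap and the log2 fold change was 0.73.

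In the dorsal raphe ENSRNOG00000017969 stood at 82.1, 67.4, 74.2, 67.8, 71.1 and 84.4 CPM in high-responder libraries 1 to 6. In low-responder dorsal raphe libraries 1 to 6 it stood at 67.7, 50.9, 58.8, 56.2, 57.05 and 66.0 CPM. The overlap came from 1 library of each line. High-responder library 2 had 909 counts of this gene (67.4 CPM, exact Poisson 95% interval 63.1 to 72.0) and low-responder library 1 had 939 counts (67.7 CPM, 63.5 to 72.2), so counting error alone did not separate them. High-responder dorsal raphe averaged 74.5 ± 7.25 CPM and low-responder dorsal raphe 59.4 ± 6.35 CPM (SD, n = 6 per group), with a log2 difference of 0.32 (SE 0.08).

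Counted over the 3 genes, the lines did not overlap for 0 in the amygdala, where 0.701% of 14265 genes were free of overlap, and for 2 in the dorsal raphe, where 0.528% of 14390 genes were. Both shares stand here as background only, because the same contrast chose the genes. Across all genes edgeR called 3 line differences (0.0210%) in the amygdala; in the dorsal raphe it called 9 (0.0625%). In size, the change of ENSRNOG00000017969 exceeded that of 98.4% (amygdala) and 92.5% (dorsal raphe) of the genes tested there. For ENSRNOG00000012274 these ranks were 92.5% and 98.3%, and for ENSRNOG00000013971 they were 70.6% and 98.0%. The changes were thus modest in fold, yet most of them ranked high. These ranks too are background only, because they order the contrast that chose the genes.

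The gene with the largest line difference was not the same in the 2 regions. ENSRNOG00000017969 had log2 differences of 0.65 (amygdala) and 0.32 (dorsal raphe), whereas ENSRNOG00000013971 had 0.16 and 0.56 and ENSRNOG00000012274 had -0.35 and -0.59. Whether a line difference itself differed between regions was not tested, because it is part of the contrast that chose the genes.

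Line differences were also taken within the earlier and within the later numbered libraries. For ENSRNOG00000012274 the log2 fold change in the amygdala was -0.48 in earlier libraries (4 of each line) and -0.06 in later ones (2 of each line), and in the dorsal raphe it was -0.49 in earlier libraries (3 high-responder, 4 low-responder) and -0.76 in later ones (3 high-responder, 2 low-responder). In the amygdala its difference was thus larger in the earlier libraries. ENSRNOG00000013971 gave 0.14 in earlier and 0.17 in later amygdala libraries, and 0.72 and 0.35 in the dorsal raphe. ENSRNOG00000017969 gave 0.54 and 0.89 in the amygdala, and 0.35 and 0.27 in the dorsal raphe. These values come from the libraries that chose the genes, so their shared signs restate that choice.

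**Figure D2:**
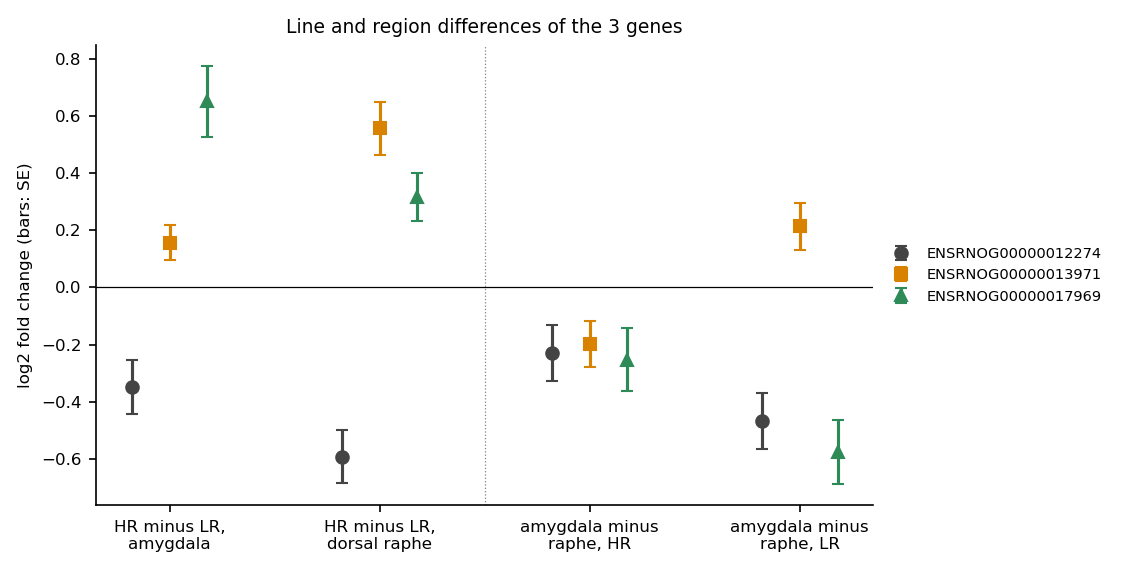
Log2 fold changes with their SE for the 3 genes: high-responder (HR) minus low-responder (LR) rats in each region on the left, which are described and not tested, and amygdala minus dorsal raphe in each line on the right. ENSRNOG00000013971 is at -0.20 in HR and at 0.21 in LR rats in the region comparison, while the other two genes are below 0 in both lines.

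The amygdala was next compared with the dorsal raphe, a contrast that played no part in the choice of genes. Over both lines ENSRNOG00000012274 and ENSRNOG00000017969 were lower in the amygdala, and for ENSRNOG00000013971 no region difference was detected. On the log2 scale, amygdala minus dorsal raphe was -0.35 for ENSRNOG00000012274 (SE 0.07, edgeR adjusted p = 0.000114) and -0.42 for ENSRNOG00000017969 (SE 0.08, edgeR adjusted p = 5.71e-05). For ENSRNOG00000013971 it was 0.01 (SE 0.06, edgeR adjusted p = 0.911). The test called 2 of the 3 genes, against 65.8% of the 14977 genes tested, and 34.0% of all genes were called lower in the amygdala. Such a share is close to that background, and a region difference of this size is common: 48.5% of genes had a smaller one than ENSRNOG00000012274 and 55.2% a smaller one than ENSRNOG00000017969.

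Within a single line the region values use the same group means as the line differences that chose the genes, so they are less independent of that choice than the value over both lines. In low-responder rats the 2 regions did not overlap for any of the 3 genes, which 32.5% of all genes also showed, and all 3 were called, against 54.5% of all genes. ENSRNOG00000012274 reached at most 150.6 CPM in low-responder amygdala and at least 157.8 CPM in low-responder dorsal raphe, a log2 value of -0.47 (SE 0.10, edgeR adjusted p = 0.000292). ENSRNOG00000017969 reached at most 47.7 CPM in low-responder amygdala and at least 50.9 CPM in low-responder dorsal raphe, with -0.58 (SE 0.11, edgeR adjusted p = 0.000111). ENSRNOG00000013971 went the other way: its lowest low-responder amygdala value was 117.8 CPM and its highest low-responder dorsal raphe value 116.1 CPM, with 0.21 (SE 0.08, edgeR adjusted p = 0.0306). The exact Poisson 95% intervals of these 2 libraries overlapped (111.7 to 124.2 and 110.1 to 122.3 CPM), so the gap between them was within counting error. The same held at the low-responder gap of ENSRNOG00000012274 (amygdala library 4, 144.0 to 157.3 CPM, dorsal raphe library 3, 150.6 to 165.2 CPM). For ENSRNOG00000017969 it held as well (amygdala library 4, 44.0 to 51.6 CPM, dorsal raphe library 2, 46.8 to 55.2 CPM).

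In high-responder rats the regions overlapped for all 3 genes, where 32.2% of all genes showed no overlap, and 1 of 3 was called, against 51.5% of all genes. That gene was ENSRNOG00000013971, lower in high-responder amygdala by a log2 value of -0.20 (SE 0.08, edgeR adjusted p = 0.0463). ENSRNOG00000012274 had -0.23 (SE 0.10, edgeR adjusted p = 0.0548) and ENSRNOG00000017969 had -0.25 (SE 0.11, edgeR adjusted p = 0.0574), both just short of the threshold. ENSRNOG00000013971 was therefore called in opposite directions in the 2 lines, and its value over both lines lay near 0. The difference between the 2 lines' region effects is the same quantity as the difference between the regions' line effects, so it was not tested.

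The calls of ENSRNOG00000013971 within a line were near the threshold. In high-responder rats the call ended in 17 of the 24 leave-one-library-out fits, whose values ran from -0.24 to -0.14, and held only without high-responder amygdala library 1 or 4, high-responder dorsal raphe library 1, 4 or 5, low-responder amygdala library 3 or low-responder dorsal raphe library 1. In low-responder rats it ended without low-responder amygdala library 2 or 4 or low-responder dorsal raphe library 1, 2 or 4, with 0.19 to 0.24 over the 24 fits and a highest edgeR adjusted p of 0.0636. In earlier numbered libraries alone its values were -0.29 in high-responder rats (edgeR adjusted p = 0.0241) and 0.29 in low-responder rats (edgeR adjusted p = 0.0148). In later ones alone, with 2 or 3 libraries in a group, they were -0.10 (edgeR adjusted p = 0.530) and 0.09 (edgeR adjusted p = 0.595).

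For the other two genes the region difference over both lines was called in every one of the 24 leave-one-library-out fits, and in earlier and later libraries alone. ENSRNOG00000012274 had -0.24 in earlier (edgeR adjusted p = 0.00936) and -0.54 in later libraries (edgeR adjusted p = 0.000766). ENSRNOG00000017969 had -0.35 in earlier (edgeR adjusted p = 0.00651) and -0.54 in later libraries (edgeR adjusted p = 0.00276). In low-responder rats the split was wider: ENSRNOG00000012274 had -0.25 in earlier (edgeR adjusted p = 0.0498) and -0.89 in later libraries (edgeR adjusted p = 0.000769), and ENSRNOG00000017969 had -0.44 (edgeR adjusted p = 0.0134) and -0.85 (edgeR adjusted p = 0.00361). These low-responder values rest on 4 earlier and 2 later libraries per region. Whether earlier and later values differ was not tested. In high-responder rats neither gene was called with all libraries, and each passed in 4 of the 24 leave-one-library-out fits and not in the other 20. ENSRNOG00000012274 passed without high-responder amygdala library 6, low-responder amygdala library 5, or low-responder dorsal raphe library 1 or 6. ENSRNOG00000017969 passed without high-responder amygdala library 1 or 3, high-responder dorsal raphe library 2 or low-responder amygdala library 6. Without high-responder amygdala library 2 the high-responder value of ENSRNOG00000017969 was -0.17 (edgeR adjusted p = 0.156).

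The 4 group levels can be put in order for each gene. ENSRNOG00000012274 was highest in low-responder dorsal raphe, followed by low-responder amygdala, high-responder dorsal raphe and high-responder amygdala. Only the step between the first pair of groups was free of overlap. ENSRNOG00000013971 was highest in high-responder dorsal raphe, followed by high-responder amygdala, low-responder amygdala and low-responder dorsal raphe, and only the last step was free of overlap. ENSRNOG00000017969 was highest in high-responder dorsal raphe, followed by high-responder amygdala, low-responder dorsal raphe and low-responder amygdala, again with only the last step free of overlap. Low-responder dorsal raphe was thus the extreme group for ENSRNOG00000012274 at the high end and for ENSRNOG00000013971 at the low end.

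Ratios of the genes' read counts within a library need no scaling between libraries, and were taken for the 3 pairs. The ratio of ENSRNOG00000017969 to ENSRNOG00000012274 was 0.479 to 0.659 in high-responder amygdala against 0.249 to 0.367 in low-responder amygdala. It was 0.549 to 0.713 in high-responder dorsal raphe against 0.239 to 0.425 in low-responder dorsal raphe. All 12 high-responder libraries lay above all 12 low-responder libraries in this ratio, whichever the region, and its means were 0.593 ± 0.0745 and 0.606 ± 0.0682 in high-responder amygdala and dorsal raphe, and 0.299 ± 0.0428 and 0.329 ± 0.0657 in the same regions of low-responder rats (SD, n = 6 per group). That the lines part in this direction follows from the choice of genes.

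The ratio of ENSRNOG00000013971 to ENSRNOG00000012274 averaged 1.34 ± 0.109 in high-responder and 0.955 ± 0.132 in low-responder amygdala, and 1.31 ± 0.219 (high-responder) and 0.599 ± 0.0907 (low-responder) in the dorsal raphe (SD, n = 6 per group). It parted the lines narrowly in the amygdala, where the lowest high-responder value was 1.18 and the highest low-responder value 1.17, and widely in the dorsal raphe, where these were 1.05 and 0.717. In the dorsal raphe each gene alone already parted the lines, in opposite directions, so their ratio had to part them. The direction in both regions follows from the choice of genes. Between regions the high-responder means of this ratio differed by less than their SDs, and every low-responder amygdala value lay above every low-responder dorsal raphe value. The latter restates that each gene alone parted the regions in low-responder rats, in opposite directions.

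The ratio of ENSRNOG00000017969 to ENSRNOG00000013971, the pair that were higher in high-responder rats, ordered the lines differently by region. It averaged 0.444 ± 0.0582 in high-responder and 0.315 ± 0.0372 in low-responder amygdala, but 0.471 ± 0.0746 (high-responder) and 0.548 ± 0.0609 (low-responder) in the dorsal raphe (SD, n = 6 per group). In low-responder rats it was at most 0.352 in the amygdala and at least 0.492 in the dorsal raphe, with no overlap, whereas in high-responder rats the regions overlapped. The low-responder separation restates that each gene alone parted the regions there, in opposite directions.

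**Figure D3:**
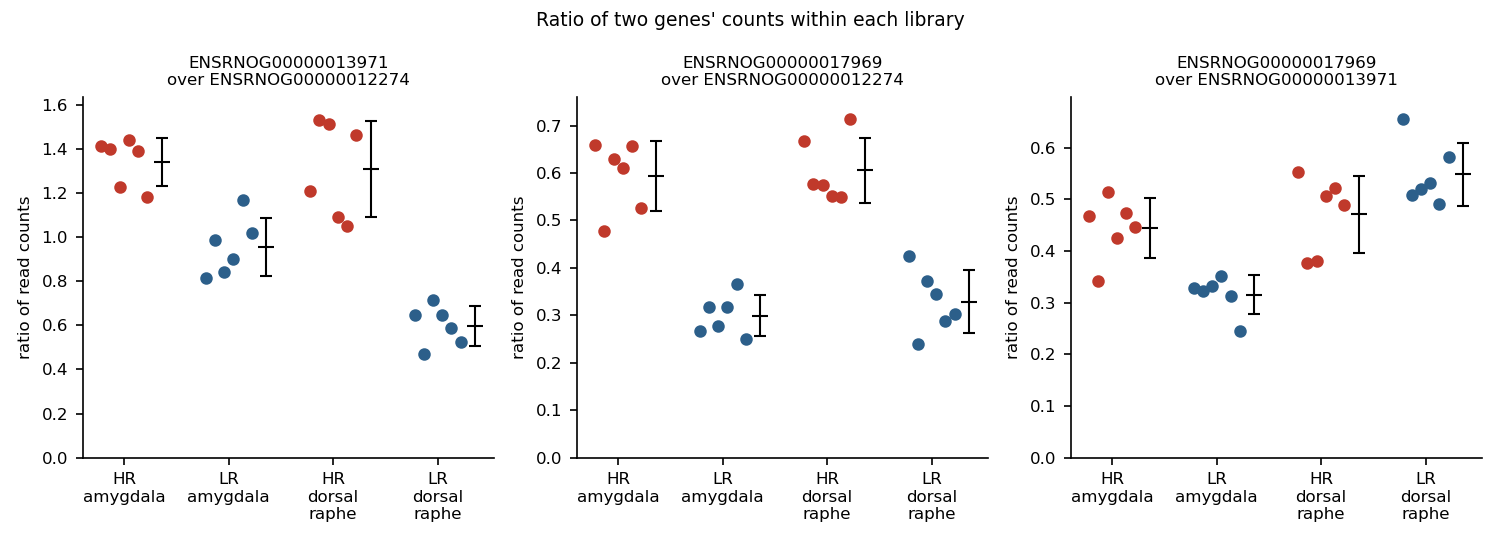
Ratio of the read counts of 2 genes within each library, for the 3 pairs of genes, in high-responder (HR, red) and low-responder (LR, blue) libraries of amygdala and dorsal raphe, with mean and SD beside the points (n = 6 each). In the middle panel all HR libraries lie at or above 0.479 and all LR libraries at or below 0.425.

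Later numbered libraries were compared with earlier ones by 1 term shared by both lines, with line in the fit, since many genes differ along this break in the dorsal raphe. None of the 3 genes was called there by edgeR, DESeq2 or limma voom, against 48.1% of 14390 genes called by edgeR, and 0 of 3 had an unadjusted edgeR p under 0.05, while limma voom gave 2 of 3. Later minus earlier on the log2 scale was 0.15 for ENSRNOG00000012274 (SE 0.08, edgeR adjusted p = 0.146), -0.05 for ENSRNOG00000013971 (SE 0.09, edgeR adjusted p = 0.692) and 0.05 for ENSRNOG00000017969 (SE 0.08, edgeR adjusted p = 0.610). A difference shared by both lines was thus not detected for these genes with 12 libraries and SEs of this size, which does not show that there was none. Opposite steps in the 2 lines cancel in a shared term. Earlier and later dorsal raphe means of ENSRNOG00000013971 were 174.2 and 147.7 CPM in high-responder rats, and 105.5 and 114.8 CPM in low-responder rats. Those of ENSRNOG00000012274 were 123.0 and 123.6 CPM, and 173.1 and 207.7 CPM. For ENSRNOG00000017969 they were 74.6 and 74.5 CPM, and 58.4 and 61.5 CPM. Steps within a line were not tested.

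In the amygdala the same test called 0 of 3 genes, and edgeR called 0 of 14265 in all (545 at an unadjusted p under 0.05, DESeq2 2 and limma voom 2). Of the 3 genes, 0 had an unadjusted edgeR p under 0.05, and limma voom gave 1. Low-responder amygdala still showed a visible step for ENSRNOG00000012274, at 107.1 and 118.7 CPM in its 2 later libraries and 134.0 to 150.6 CPM in its 4 earlier ones. High-responder amygdala did not: its 2 later libraries stood at 95.8 and 121.6 CPM, around the 4 earlier ones at 90.6 to 110.8 CPM.

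The spread within groups exceeded counting error for each gene in each group. The coefficient of variation of ENSRNOG00000012274 was 4.27% in high-responder dorsal raphe, where counting alone gives 2.51%, and 15.0% in low-responder dorsal raphe, where counting gives 2.17%. For ENSRNOG00000013971 the order was the reverse, with 15.5% in high-responder and 6.01% in low-responder dorsal raphe, where counting gives 2.19% and 2.83%. ENSRNOG00000017969 varied by 15.7% in high-responder and 15.0% in low-responder amygdala, and by 9.73% and 10.7% in the dorsal raphe of the same lines, with counting error of 3.22% to 4.49% over the 4 groups. For the first 2 genes the wider dorsal raphe group was the one with the higher mean.

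By level the 3 genes stood high in the tables, which restates their choice as well expressed genes. The mean over 24 libraries was 136.8 CPM for ENSRNOG00000012274, 134.1 CPM for ENSRNOG00000013971 and 59.1 CPM for ENSRNOG00000017969, above 89.7%, 89.4% and 73.7% of the 14977 genes past the low count filter. These levels are not per length, so they do not rank the genes' transcripts. The window of 39.8 to 184.7 CPM, set by the group means of the 3 genes themselves, holds 4401 genes by their mean. The pooled SD within groups was 0.17 log2 units for ENSRNOG00000012274, 0.14 for ENSRNOG00000013971 and 0.20 for ENSRNOG00000017969, against a median of 0.17 in that window, and 49.0%, 32.7% and 62.2% of its genes had a smaller one.

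**Figure D4:**
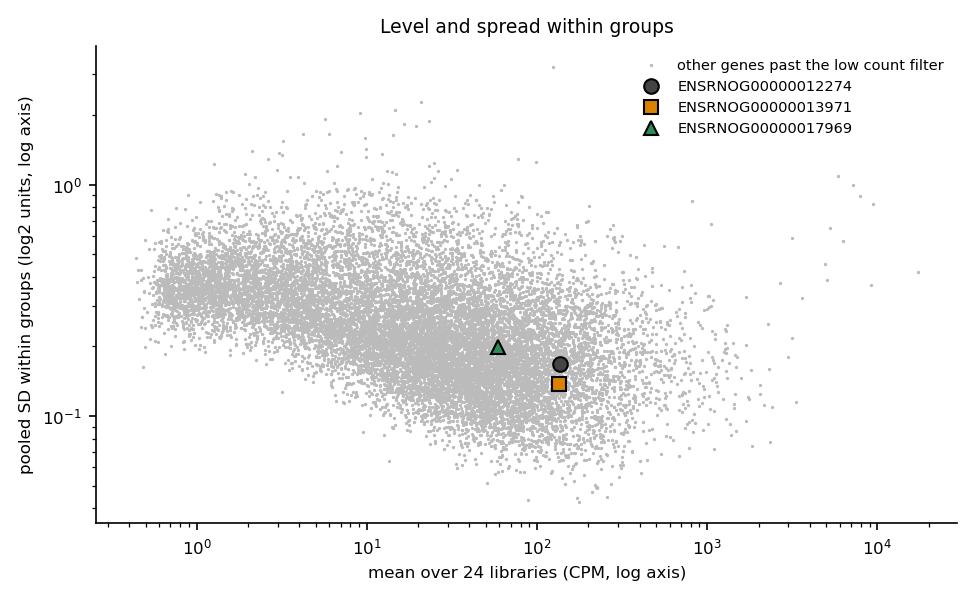
Mean level over 24 libraries (CPM, log axis) against the pooled SD within the 4 groups (log2 units, log axis) for the 14977 genes past the low count filter (grey), with the 3 genes marked. They lie at SDs of 0.17, 0.14 and 0.20, within the cloud of genes at the same level.

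Each gene was matched to the gene whose log2 CPM followed it most closely over the 24 libraries, after the mean of each region was subtracted, among 10080 genes with a mean of at least 10 CPM. These values describe 24 libraries that share depth, scaling and line, and carry no test. The line difference was not subtracted, so a best match tends to share the line difference that chose the gene. For ENSRNOG00000012274 it was ENSRNOG00000017468, with a Pearson r of 0.75. ENSRNOG00000017468 averaged 9.68 ± 1.15 CPM (high-responder) and 13.8 ± 2.16 CPM (low-responder) in the amygdala, and 10.4 ± 2.88 CPM (high-responder) and 15.8 ± 3.72 CPM (low-responder) in the dorsal raphe (SD, n = 6 per group). For ENSRNOG00000013971 it was ENSRNOG00000051196 (r of 0.81), with 14.0 ± 2.27 CPM (high-responder) and 11.2 ± 2.03 CPM (low-responder) in the amygdala, and 19.6 ± 6.60 CPM (high-responder) and 12.7 ± 1.55 CPM (low-responder) in the dorsal raphe. For ENSRNOG00000017969 it was ENSRNOG00000013654 (r of 0.87), with 29.1 ± 7.80 CPM (high-responder) and 16.8 ± 4.25 CPM (low-responder) in the amygdala, and 33.8 ± 6.54 CPM (high-responder) and 27.9 ± 1.62 CPM (low-responder) in the dorsal raphe.

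Pairs of the 3 genes were also compared. Their r values are not set against the best matches above, which were picked as the highest of 10080 genes. On the same measure ENSRNOG00000017969 and ENSRNOG00000013971 had an r of 0.58, which placed ENSRNOG00000013971 at rank 150 among the genes most like ENSRNOG00000017969. The r of ENSRNOG00000012274 was -0.65 with ENSRNOG00000013971 and -0.47 with ENSRNOG00000017969. With the mean of each of the 4 groups subtracted, so that the line difference was removed, these 3 values were 0.38, 0.14 and 0.32. The signs of all 3 values before that step, the positive one included, follow from the choice of genes. ENSRNOG00000012274 was taken as lower and the other two as higher in high-responder rats.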

How the data were processed

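Poly-A RNA libraries of amygdala and dorsal raphe from the 2 rat lines were sequenced, with RNA from a Qiagen miRNeasy kit, per the labels' protocols. Trim Galore, STAR and the genome build rn6 are named, per the submitters' processing notes; for versions, counting program, annotation and strand, the sources used here give nothing. The values deposited by the authors are raw read counts per Ensembl gene ID, 1 table per library, with 0 lines that name no gene. Without strand or multi-mapping settings, reads shared with overlapping, antisense or near-identical genes cannot be told apart.

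The count tests used edgeR 4.0.16 under R 4.3.3 (filterByExpr, TMM, glmQLFit, glmQLFTest), with Benjamini-Hochberg adjustment over all genes tested and a threshold of 0.05. SE is the log2 fold change over the square root of F. The region fit used 24 libraries as 4 groups; the line fits used the 12 libraries of a region; the fit of later against earlier library numbers had line as a covariate. The fits were tested on simulated data. Libraries within groups differed by more than sampling (chi-square of at least 3.46 per degree of freedom). Intervals cover counting error only. Log2 CPM for likeness had a prior count of 2, and the spread within groups used log2(CPM + 0.5). The named genes were the 3 members and, for each, the ID with the highest r. Members, lists and alternatives (DESeq2 1.42.0, limma 3.58.1 voom, RLE or no scaling, other filters, library subsets) were chosen with earlier results of these data known. Every limma voom fit used sample quality weights. Marker lists could not be applied without symbols.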

Additional observations from a re-analysis of the deposited data

Results flagged for a closer look

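Of 28 groups of 6 values examined for the 3 genes, their ratios and the library totals, 3 held 1 value that stood apart, where chance gives about 1 in 20. ENSRNOG00000017969 stood at 43.3 CPM in high-responder amygdala library 2, against at least 63.0 CPM in the other 5, a gap that took 0.742 of the group's range. The ratio of ENSRNOG00000017969 to ENSRNOG00000013971 was 0.244 in low-responder amygdala library 6, against at least 0.314 in the other 5. High-responder amygdala library 1 had a total of 20194601 counts, while none of the other 5 exceeded 12243679, and it was neither the highest nor the lowest of its group in CPM for any of the 3 genes.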

How the results depend on the processing

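Of 546 values of the 3 genes under the alternatives, 493 kept their direction and their side of the threshold (or, for line differences, moved by less than the SD within groups). The region difference of ENSRNOG00000013971 over both lines lay near 0 and turned to -0.014 with limma voom and -0.0032 in later libraries alone, and ranged from -0.011 to 0.038 when 1 library was left out. Its high-responder call ended with RLE (-0.19), with no filter (-0.19) and in later libraries alone (-0.10), and its low-responder call in later libraries alone (0.092). In high-responder rats ENSRNOG00000012274 passed with library size only (-0.24), limma voom (-0.23) and a term for later libraries (-0.22), and ENSRNOG00000017969 with limma voom (-0.23). When 1 library was left out, high-responder values ranged from -0.27 to -0.19 for ENSRNOG00000012274, from -0.24 to -0.14 for ENSRNOG00000013971 and from -0.29 to -0.17 for ENSRNOG00000017969, and the low-responder value of ENSRNOG00000013971 from 0.19 to 0.24.

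In later libraries alone the line difference of ENSRNOG00000012274 moved to -0.056 (amygdala) and -0.76 (dorsal raphe), and that of ENSRNOG00000013971 in the dorsal raphe to 0.35. The later against earlier value in the dorsal raphe turned to -0.018 for ENSRNOG00000017969 with library size only, and ranged from -0.0087 to 0.095 for it and from -0.12 to 0.010 for ENSRNOG00000013971 when 1 library was left out. The cause was not tested for any of these.

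Counts over all genes moved more. Line calls in the amygdala were 1 with RLE, library size only or no filter, 2 with a term for later libraries, 82 with DESeq2, 246 with limma voom, 0 in earlier and 61 in later libraries, and 1 to 27 without 1 library. In the dorsal raphe they were 39 with DESeq2, 26 with limma voom, 16 in earlier and 0 in later libraries, and 3 to 12 without 1 library. Later against earlier calls in the amygdala were 2 with DESeq2 and 2 with limma voom.

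Same-numbered libraries of the 2 regions did not deviate together (r from -0.30 to 0.19 in high-responder and -0.08 to 0.14 in low-responder rats), nor did those of the 2 lines throughout (-0.33 to 0.58 in the amygdala, -0.52 to 0.65 in the dorsal raphe), so the numbers were not treated as pairs; whether they mark shared rats is not given. With the replicate number as a block, the region calls of ENSRNOG00000013971 ended in high-responder (-0.19, edgeR adjusted p = 0.122) and low-responder rats (0.21, edgeR adjusted p = 0.0754), the genes called between regions numbered 9424 and line calls were 3 (amygdala) and 5 (dorsal raphe). A library correlated best with its own number across regions in 1 of 6 high-responder and 0 of 6 low-responder pairs, and across lines in 2 of 6 amygdala and 2 of 6 dorsal raphe pairs.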
